A study of Homo sapiens with 6 samples.

Results

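The Polycomb group genes analysed here were 36 genes that encode subunits of Polycomb repressive complex 2 (PRC2, 11 genes), Polycomb repressive complex 1 (PRC1, 22 genes) and the Polycomb repressive deubiquitinase (PR-DUB, 3 genes). They were taken by gene symbol from knowledge of the complexes, with no rule on their values but with earlier results of these data known. All 36 were found among the 37887 rows of the count table. Each of the 36 also passed the filter on low counts that left 15355 genes for testing. RNA was sequenced from the established line MDA-MB-436, a triple-negative breast cancer line with mutant BRCA1. The cells stably carried a tetracycline-inducible short hairpin RNA (shRNA) against MUC1, which encodes a transmembrane mucin. They were grown in triplicate with 0.1% DMSO as vehicle (control, n = 3 libraries) or with 500 ng/ml doxycycline (shMUC1, n = 3 libraries). Both groups therefore held the same inducible vector, although the sample titles name the vehicle group a control shRNA.

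Cells with a control hairpin under doxycycline were not analysed here, so doxycycline and MUC1 silencing cannot be told apart. All libraries came from 1 line with 1 hairpin, and how long treatment lasted is not stated in the labels. P-values measure the spread between triplicate cultures, for which no separate day or passage is given. Library totals ran from 18678307 to 27825546 counts, with shMUC1 replicate 3 the shallowest. Levels are given as counts per 1000000 counts (CPM) on library sizes scaled by the trimmed mean of M values (TMM). MUC1 had 93, 84 and 102 counts in the control libraries and 72, 51 and 34 in the shMUC1 libraries. It fell by 0.84 on the log2 scale (SE 0.214, edgeR adjusted p = 0.00119), with no overlap in CPM. The label of a triple-negative line was checked by its receptors. ESR1 had 2 to 12 counts and PGR 0 to 4 counts in each library, whereas ERBB2 was present at 44.7 ± 2.41 CPM in control and 39.0 ± 0.463 CPM in shMUC1 cells (SD, n = 3 each). VIM stood at 718 and KRT8 at 426 CPM in control, against 417 and 825 CPM in shMUC1 cells.

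Polycomb complexes keep developmental genes silent by marking histones. PRC2 methylates lysine 27 of histone H3 through EZH2 or its paralogue EZH1, which work only when bound to EED and SUZ12. PRC1 attaches ubiquitin to histone H2A through RING1 or RNF2 (RING1B), each paired with 1 of the PCGF proteins, of which BMI1 (PCGF4) is the best known. Canonical PRC1 reads the PRC2 mark through a CBX protein and compacts chromatin through the PHC proteins. Variant PRC1 holds RYBP or YAF2 instead of a CBX. PR-DUB, formed by BAP1 with an ASXL protein, removes ubiquitin from H2A. EZH2 and BMI1 are widely studied in breast cancer for their part in self-renewal.

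The promoters of the 2 RING ligases, of BMI1 and of L3MBTL2 are shown because RNF2 and BMI1 were lower, and RING1 and L3MBTL2 higher, in shMUC1 cells. Each runs 5′ to 3′ over 250 bases before and 50 bases after the RefSeq start on GRCh38.p14, with matches to the motifs searched in capitals.
BMI1 promoter, chr10:22320849-22321148, plus strand: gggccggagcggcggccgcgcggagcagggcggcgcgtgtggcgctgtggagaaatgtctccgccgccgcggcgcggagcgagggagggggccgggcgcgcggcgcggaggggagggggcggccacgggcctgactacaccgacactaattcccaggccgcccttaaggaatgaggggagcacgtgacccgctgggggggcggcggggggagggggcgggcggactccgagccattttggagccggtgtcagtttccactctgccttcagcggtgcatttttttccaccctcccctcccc
RNF2 promoter, chr1:185045308-185045607, plus strand: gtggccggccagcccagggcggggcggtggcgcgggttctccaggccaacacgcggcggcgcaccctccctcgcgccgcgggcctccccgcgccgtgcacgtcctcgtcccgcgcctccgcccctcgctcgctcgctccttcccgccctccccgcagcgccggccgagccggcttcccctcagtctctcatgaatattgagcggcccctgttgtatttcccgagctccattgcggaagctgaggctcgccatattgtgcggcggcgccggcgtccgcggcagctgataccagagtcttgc
RING1 promoter, chr6:33208250-33208549, plus strand: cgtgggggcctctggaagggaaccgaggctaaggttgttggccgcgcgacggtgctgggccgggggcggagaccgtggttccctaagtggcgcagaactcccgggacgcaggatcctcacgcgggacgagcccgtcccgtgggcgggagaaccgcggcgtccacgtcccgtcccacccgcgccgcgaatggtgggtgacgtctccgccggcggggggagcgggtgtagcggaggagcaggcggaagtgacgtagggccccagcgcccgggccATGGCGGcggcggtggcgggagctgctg
L3MBTL2 promoter, chr22:41205062-41205361, plus strand: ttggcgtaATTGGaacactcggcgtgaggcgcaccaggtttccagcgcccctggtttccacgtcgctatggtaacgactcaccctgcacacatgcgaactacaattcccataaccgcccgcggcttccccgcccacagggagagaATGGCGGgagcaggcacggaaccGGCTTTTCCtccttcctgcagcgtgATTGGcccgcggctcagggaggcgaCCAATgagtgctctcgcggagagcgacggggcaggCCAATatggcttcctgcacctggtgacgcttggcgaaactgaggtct
The BMI1 and RNF2 windows held none of the 7 motifs searched on both strands. The RING1 window held the YY1 letters ATGGCGG, which begin 23 bases after the start. The L3MBTL2 window held those same letters, 4 copies of the NF-Y letters CCAAT and 1 match to the kappaB letters GGNNNTTCC. A match describes only these letters in this window.

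Promoters of 33 of the 36 genes were matched in RefSeq. Their median GC content was 69.7%, against 58.7% over 35093 promoters. The ratio of observed to expected CpG was above 0.6 in 29 of 33 (87.9%), against 48.9% of all promoters, and the lowest ratio was that of PCGF2 at 0.0962. The NF-Y letters stood in 14 of 33 windows (42.4%), against 34.6% of all. The kappaB letters stood in 8 (24.2%), against 20.1%. The ETS letters CCGGAAG stood in 5 (15.2%), against 10.3%. The YY1 letters stood in 4 (12.1%), against 5.55%, namely those of L3MBTL2, PHC3, RBBP4 and RING1. The NRF1 letters GCGCATGC stood in 4 (12.1%), against 3.05%. The TATA letters TATAAA stood in 3 (9.09%), against 11.5%. The E2F letters TTTGGCGC stood in 1 window, that of EZH2, and in 0.653% of all. Higher and lower genes were found among the holders of the YY1 letters alike, 2 of each. These shares are descriptions of letters in windows rich in GC and were not tested. Only the first listed promoter of each of the 33 genes was used, whereas the 35093 promoters may hold several starts of a gene. The GC, CpG and motif values are therefore not set side by side on the same unit.

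The summed counts of the 36 genes took 0.2923% to 0.2934% of all counts in the control libraries and 0.2795% to 0.2810% in the shMUC1 libraries. This is a share of raw totals, neither TMM-scaled nor divided by length, in which genes with high counts weigh most. In edgeR (quasi-likelihood test, Benjamini-Hochberg adjustment over all 15355 genes), 11 of 36 were higher in shMUC1 cells and 9 were lower at an adjusted p under 0.05. The higher genes were EZH1, EED, SUZ12, RBBP7, JARID2, RING1, PCGF3, SCMH1, RYBP, YAF2 and L3MBTL2. The lower genes were RBBP4, PHF19, RNF2, BMI1, PCGF5, PHC1, PHC3, BCORL1 and ASXL1. In the same comparison 25.2% of all tested genes were higher and 23.6% lower. The share of Polycomb genes called in either direction was 55.6%, against 48.7% of all tested genes and 56.0% of the 12399 genes with a mean count at least that of the lowest Polycomb gene. The Polycomb share is therefore near that of genes above this lowest count. The 12399 genes were not matched further in depth, with a median SE of 0.0734 against 0.0573 for the Polycomb genes.

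The changes were small. The median log2 fold change was 0.04 over the 36 genes and 0.00058 over all tested genes. The median of its absolute value was 0.146, against 0.245 over all and 0.220 over the 12399 genes above the lowest Polycomb count. BMI1 was the only one of the 36 with a fold change over 1.5, against 5.51% of all tested genes higher and 8.34% lower by that rule. At a fold change over 2 there were 0 Polycomb genes higher and 0 lower, against 2.21% and 3.74% of all. CPM of the groups did not overlap for 8 higher and 10 lower genes, against 28.1% and 26.8% of all. Leaving out shMUC1 replicate 2 left 7 higher and 10 lower genes. After removal of the trend on GC content and gene length in each library, 13 were higher and 6 lower, so the split of directions moved with that correction. Of the 20 calls, 11 held under each of the 16 alternatives run per gene. They were EED, SUZ12, RBBP7, PCGF3, SCMH1 and L3MBTL2 on the higher side and BMI1, RNF2, PHC3, PHF19 and BCORL1 on the lower side.

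**Figure D1:**
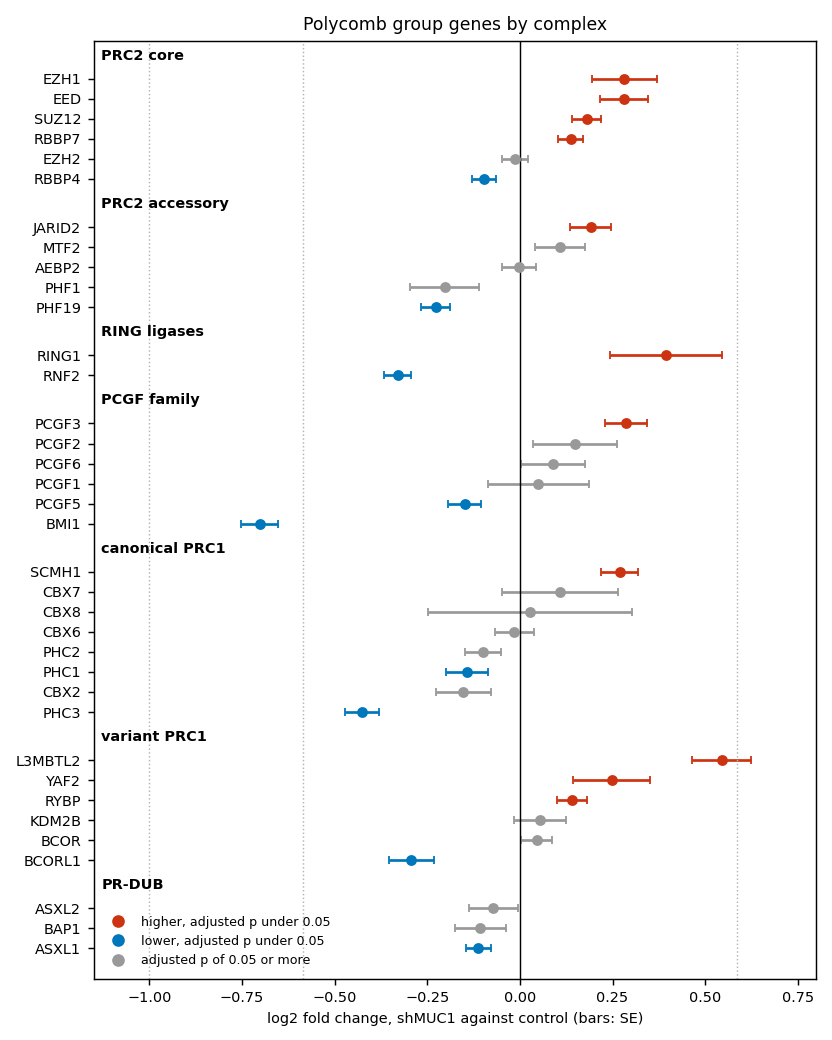
Log2 fold change of each of the 36 genes in shMUC1 against control cells (x axis; bars are the SE, n = 3 libraries a group), grouped by complex. Coloured points passed an adjusted p under 0.05, and dotted lines mark 1.5-fold either way and 2-fold lower. BMI1, at -0.70, is the only point beyond 1.5-fold.

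Gene levels were compared per length, as CPM per kilobase of annotated exon in GENCODE 29. In control cells RNF2 stood highest at 52.0 ± 0.948 CPM per kb (SD, n = 3), followed by EZH2 at 42.1 ± 0.538, RBBP7 at 37.1 ± 0.772 and RBBP4 at 33.4 ± 0.871. In shMUC1 cells EZH2 at 41.7 ± 1.14, RNF2 at 41.3 ± 0.899 and RBBP7 at 40.8 ± 0.832 CPM per kb differed by less than the largest of their SDs. BMI1 went from the 7th to the 13th place, with 19.5 ± 0.637 CPM per kb in control and 12.0 ± 0.276 in shMUC1 cells (SD, n = 3 each). CBX8 was the lowest in both groups at 0.441 ± 0.0317 and 0.442 ± 0.139 CPM per kb, and CBX7 was next. YAF2 and KDM2B followed them from below in both groups. All annotated exons enter the length, so a gene with long rarely used exons is placed too low.

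**Figure D2:**
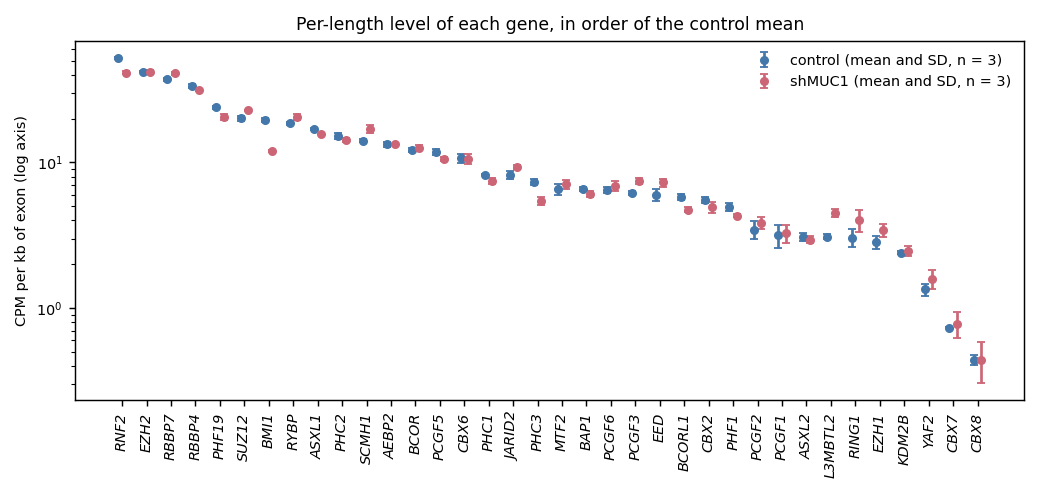
Mean level of each gene in CPM per kb of exon (y axis, log scale) in control and shMUC1 cells, ordered by the control mean. Bars are the SD of 3 libraries. RNF2 and EZH2 lead the order and CBX7 and CBX8 end it. On the log axis BMI1 shows the widest gap between the groups, 19.5 against 12.0 CPM per kb.

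To compare the methyltransferase complex, PRC2 core genes were examined first. Of 6 core genes, 4 were higher, 1 was lower and EZH2 was not called. Over all tested genes 25.2% were higher and 23.6% lower, and these shares stand beside the counts of each class below. The median SE was 0.0376 over the core genes, against 0.0924 over all tested genes, so smaller shifts could be called in them. EZH2, the main catalytic subunit, was at 193, 189 and 189 CPM in control and at 192, 183 and 191 CPM in shMUC1 libraries. The groups overlapped. The log2 fold change was -0.01 (SE 0.0358, edgeR adjusted p = 0.793), with a 95% interval from -0.0834 to 0.0571. EED, which binds the methylated tail and activates the enzyme, was at 40.7, 46.4 and 39.0 CPM in control and at 50.7, 48.2 and 54.6 CPM in shMUC1 libraries. It was higher in every shMUC1 library, with a log2 fold change of 0.28 (SE 0.0644, edgeR adjusted p = 0.000387). SUZ12, the scaffold of the core, was at 126, 137 and 131 CPM in control and at 150, 151 and 147 CPM in shMUC1 libraries. Its groups did not overlap either, and its log2 fold change was 0.18 (SE 0.0393, edgeR adjusted p = 0.000225).

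EZH1, the second methyltransferase, rose from 19.8 ± 2.03 to 23.9 ± 2.29 CPM (SD, n = 3 each), with a log2 fold change of 0.28 (SE 0.0883, edgeR adjusted p = 0.00787). Its highest control library lay above its lowest shMUC1 library. The call was lost without control replicate 3 (edgeR adjusted p = 0.0726) and without shMUC1 replicate 2 (0.0865). The histone-binding subunits RBBP4 and RBBP7, which serve other chromatin complexes too, went apart. RBBP7 rose from 275 ± 5.71 to 302 ± 6.15 CPM and RBBP4 fell from 316 ± 8.25 to 296 ± 2.60 CPM (SD, n = 3 each). The log2 fold changes were 0.14 and -0.10, and the call of RBBP4 was lost without control replicate 2 (edgeR adjusted p = 0.0933) and after correction for GC content and length (0.232).

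EZH2 made up 93.7% ± 0.635 of the summed per-length level of EZH1 and EZH2 in control and 92.4% ± 0.855 in shMUC1 cells (SD, n = 3 each). By library the share was 94.0%, 93.0% and 94.1% in control and 92.6%, 91.5% and 93.1% in shMUC1 cells, which overlap. The difference was -1.31 points (exact two-sided permutation p = 0.2, where 3 against 3 cannot go below 0.1), and -0.834 points without shMUC1 replicate 2.

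EZH2 is also known to follow cell proliferation, and a list of 16 proliferation genes was set beside it. Of these, 3 were higher, 5 lower and 8 not called, with a median log2 fold change of -0.0052 and a range from -0.34 to 0.14. The share called was 50%, against 48.7% of all tested genes. It was 56.0% for genes with a mean count at least that of the lowest Polycomb gene. Only called genes are named next. The mitotic kinases BUB1, PLK1 and AURKA fell by 0.34, 0.33 and 0.21 on the log2 scale. TOP2A, a topoisomerase of dividing cells, fell by 0.16 and E2F1, a cell cycle transcription factor, rose by 0.14. Their part in the Polycomb values was not tested.

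The accessory genes decide where PRC2 binds. Of 5, JARID2 was higher, PHF19 was lower and 3 were not called. PHF19, a Polycomb-like protein that recruits PRC2 to CpG islands, fell from 162 ± 3.84 to 138 ± 6.67 CPM (SD, n = 3 each). The fold change was -0.23 on the log2 scale (SE 0.0397, edgeR adjusted p = 8.72e-06), with no overlap between groups, and -0.13 after correction for GC content and length (0.0056). JARID2, which helps dock PRC2 on chromatin, rose from 49.3 ± 2.86 to 56.2 ± 1.55 CPM, a log2 fold change of 0.19. Its edgeR adjusted p was 0.00507, and 0.0511 without control replicate 2. AEBP2 had a log2 fold change of -0.0028 and MTF2 of 0.11, with edgeR adjusted p of 0.965 and 0.195. PHF1 stood at -0.20 (edgeR adjusted p = 0.0656) although its groups did not overlap, and passed without control replicate 3 (0.0470). Among the 3 Polycomb-like paralogues, PHF19 held 67.5% ± 1.05 of the summed per-length level in control and 64.3% ± 1.75 in shMUC1 cells, while MTF2 went from 18.5% ± 1.498 to 22.2% ± 1.85 (SD, n = 3 each). Both shares differed with no overlap (exact permutation p = 0.1 each, the smallest possible).

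The median log2 fold change over the 11 PRC2 genes was 0.11. It was 0.0501 without control replicate 1 and 0.0436 without shMUC1 replicate 2.

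The RING ligases, the catalytic subunits of PRC1, moved in opposite directions. RNF2 was at 213, 214 and 207 CPM in control and at 171, 169 and 164 CPM in shMUC1 libraries. Every shMUC1 library lay below every control library. RNF2 fell by 0.33 on the log2 scale (SE 0.0357, edgeR adjusted p = 6.87e-10), 1.26-fold. RING1 was far less abundant, at 4.83, 5.42 and 6.35 CPM in control and at 5.90, 8.08 and 8.06 CPM in shMUC1 libraries. Its groups overlapped through control replicate 3 and shMUC1 replicate 1.

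The log2 fold change of RING1 was 0.40 (SE 0.151, edgeR adjusted p = 0.029) on 106 to 208 counts a library. The call was lost with DESeq2 (adjusted p = 0.0903) and limma-voom (0.0549). It was also lost in edgeR without control replicate 1 (adjusted p = 0.129), control replicate 2 (0.0621), shMUC1 replicate 2 (0.142) or shMUC1 replicate 3 (0.109). RNF2 made up 95.2%, 94.6% and 93.6% of the summed per-length level of the pair in control and 92.8%, 90.3% and 90.1% in shMUC1 libraries. RNF2 was the main ligase transcript in each library, with a ratio to RING1 of 17.3 ± 2.59 in control and 10.5 ± 2.17 in shMUC1 cells (SD, n = 3 each; exact permutation p = 0.1, the smallest possible).

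**Figure D3:**
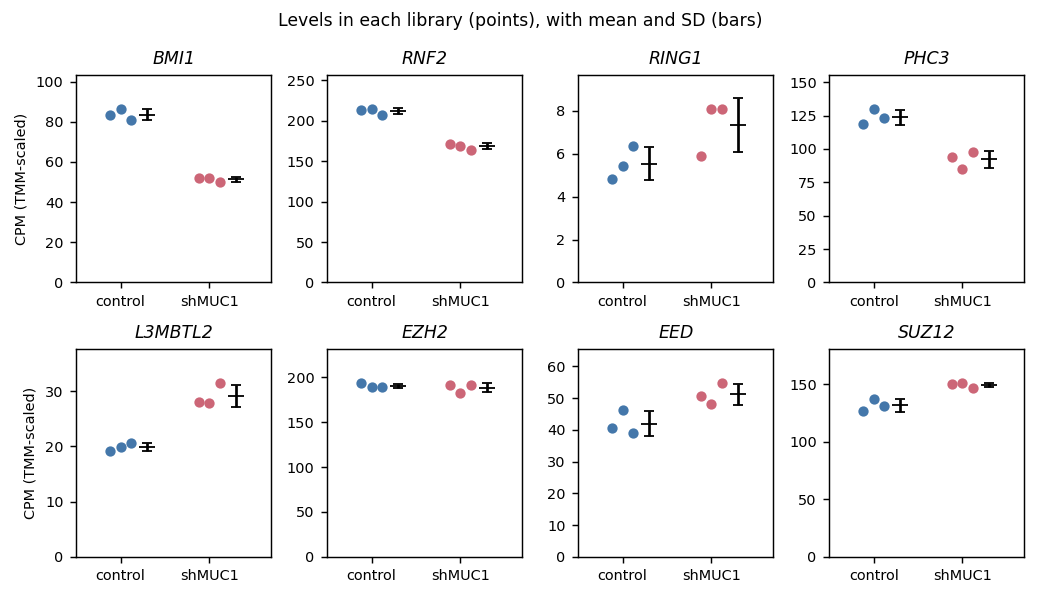
CPM in each library (points) with the group mean and SD (black, n = 3) for 8 Polycomb genes, each on a y axis that starts at 0. BMI1, RNF2 and PHC3 lie lower and L3MBTL2, EED and SUZ12 higher in shMUC1 cells without overlap, whereas RING1 and EZH2 overlap.

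BMI1, the PCGF subunit of canonical PRC1 that stimulates the ligase, changed most. It was at 83.7, 86.3 and 80.8 CPM in control and at 52.0, 51.9 and 49.9 CPM in shMUC1 libraries. The groups lay far apart against their spread, at 83.6 ± 2.73 and 51.3 ± 1.18 CPM (SD, n = 3 each). BMI1 fell by 0.70 on the log2 scale (SE 0.0499, edgeR adjusted p = 1.39e-14), 1.63-fold, and from -0.74 to -0.68 over the alternatives. On GRCh38 the gene spans chr10:22321211-22331484 on the plus strand. The read-through gene COMMD3-BMI1 covers 23.4% of the exon length of BMI1 on the same strand and had 0 counts in every library. How reads on exons shared by several genes were counted is not given in the sources used here. The 0 therefore does not show that the read-through is absent. The upstream partner of that read-through, COMMD3, had a log2 fold change of 0.11 (SE 0.152, edgeR adjusted p = 0.58).

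Of the 5 other PCGF genes, PCGF3 was higher, PCGF5 lower and 3 were not called. PCGF3, which joins variant PRC1, was at 47.3, 44.3 and 45.7 CPM in control and at 58.2, 56.0 and 52.8 CPM in shMUC1 libraries. Its log2 fold change was 0.29 (SE 0.0568, edgeR adjusted p = 6.39e-05). PCGF5, its closest paralogue, fell from 97.6 ± 4.67 to 87.98 ± 2.57 CPM (SD, n = 3 each), with a log2 fold change of -0.15 (SE 0.0452). Its edgeR adjusted p was 0.00598, and 0.0678 without control replicate 2. PCGF2 (MEL18), the other PCGF of canonical PRC1, had a log2 fold change of 0.15 (SE 0.112, edgeR adjusted p = 0.288), and a 95% interval from -0.0714 to 0.369. PCGF1 and PCGF6 stood at 0.05 and 0.09 with edgeR adjusted p of 0.794 and 0.417.

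As a share of the summed per-length level of the 6 PCGF genes, BMI1 held 38.0%, 39.7% and 38.1% in control and 27.8%, 26.7% and 27.05% in shMUC1 libraries. The difference of -11.4 points had the smallest p that 3 against 3 allows (exact two-sided permutation p = 0.1, 0.2 adjusted over 20 shares). BMI1 was the most abundant PCGF transcript in each library of both groups. Shares sum to the whole, so the other genes together had to gain. PCGF3 went from 12.2% ± 0.373 to 17.01% ± 0.781, PCGF6 from 12.9% ± 0.429 to 15.7% ± 0.798 and PCGF2 from 6.85% ± 1.02 to 8.71% ± 0.751 (SD, n = 3 each), each without overlap. PCGF5, at 23.2% ± 0.990 and 24.1% ± 1.27, overlapped, as did PCGF1. The ratio of BMI1 to PCGF3 was 3.17 ± 0.180 in control and 1.599 ± 0.0448 in shMUC1 cells. Over the 8 paralogue families, 10 of 20 shares did not overlap between the groups. Shares within a family depend on each other, and shares of other gene families were not computed. For CPM of single genes, 28.1% of all tested genes were higher and 26.8% lower without overlap.

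**Figure D4:**
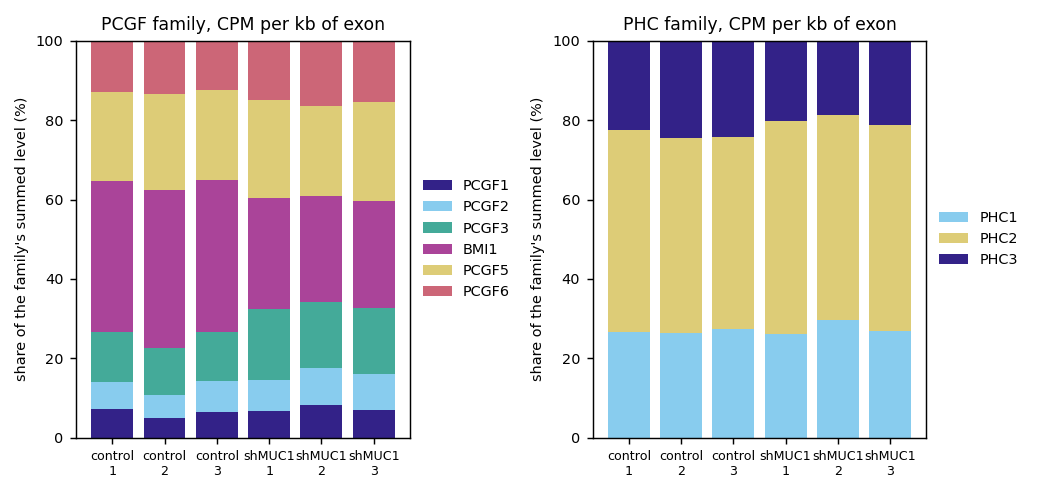
Share of each gene in the summed CPM per kb of the PCGF family (left) and the PHC family (right) in each of the 6 libraries; bars stack to 100%. The BMI1 band narrows from 38.0% to 39.7% in control to 26.7% to 27.8% in shMUC1 libraries, and the PHC3 band from 22.5% to 24.4% to 18.8% to 21.2%.

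Among the 8 other canonical PRC1 genes, SCMH1 was higher, PHC1 and PHC3 were lower and 5 were not called. PHC3, a polyhomeotic protein whose SAM domain links PRC1 complexes, was at 119, 130 and 123 CPM in control and at 94.2, 85.2 and 97.6 CPM in shMUC1 libraries. All shMUC1 libraries lay below the control libraries. PHC3 fell by 0.43 on the log2 scale (SE 0.0464, edgeR adjusted p = 7.99e-10). PHC1 fell from 50.3 ± 0.353 to 45.5 ± 2.45 CPM (SD, n = 3 each), with a log2 fold change of -0.14 with an edgeR adjusted p of 0.0392. That call was lost in 7 of 16 alternatives, among them those without control replicate 1 (0.0905), control replicate 2 (0.0854), shMUC1 replicate 1 (0.189) and shMUC1 replicate 3 (0.122). PHC2 stood at -0.10 (edgeR adjusted p = 0.091) and passed without control replicate 3 (0.0170). PHC2 was the main PHC transcript per length, at 49.5% ± 1.34 of the family in control and 52.3% ± 0.981 in shMUC1 cells.

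SCMH1, a further SAM-domain subunit, rose from 62.7 ± 1.68 to 75.6 ± 4.45 CPM (SD, n = 3 each), with a log2 fold change of 0.27 (SE 0.0512, edgeR adjusted p = 3.4e-05). The CBX genes, which read the PRC2 mark, were not called. CBX6, the most abundant of the 4 measured here, held 61.5% ± 0.910 of their summed per-length level in control and 63.2% ± 1.17 in shMUC1 cells. On the log2 scale it changed by -0.0149, without a call. CBX2 stood at -0.15 (edgeR adjusted p = 0.0858) and passed without shMUC1 replicate 2 (0.0358), and its share went from 31.7% ± 0.829 to 29.5% ± 0.290 without overlap. CBX7 and CBX8 had 88 to 183 and 23 to 66 counts a library. The 95% interval of CBX8 ran from -0.513 to 0.568 on the log2 scale, which leaves shifts of that size undetected at this depth.

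Of the 6 genes particular to variant PRC1, L3MBTL2, RYBP and YAF2 were higher, BCORL1 was lower and 2 were not called. L3MBTL2, an MBT-domain protein of the PCGF6 complex, was at 19.1, 19.8 and 20.7 CPM in control and at 28.1, 27.8 and 31.4 CPM in shMUC1 libraries. The groups did not overlap. Its log2 fold change was 0.54 (SE 0.0791, edgeR adjusted p = 3.6e-07), the largest rise among the 36 genes, and ran from 0.49 to 0.61 over the alternatives. Exons of CHADL and AL035681.1 on the opposite strand cover 16.3% of its exon length, and whether counting used strand is not given in the sources used here.

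BCORL1, a corepressor of the PCGF1 complex, fell from 46.2 ± 2.09 to 37.7 ± 1.48 CPM (SD, n = 3 each), with a log2 fold change of -0.29 (SE 0.0616, edgeR adjusted p = 0.000136). Its paralogue BCOR stood at 0.045 (edgeR adjusted p = 0.408), and passed at 0.11 after correction for GC content and length (0.0302). RYBP, which stimulates ligase activity in variant PRC1, rose from 134 ± 3.35 to 147 ± 7.33 CPM, a log2 fold change of 0.14 with an edgeR adjusted p of 0.00404, and 0.0602 without shMUC1 replicate 2. YAF2, the paralogue of RYBP, was at 14.6 ± 1.39 and 17.2 ± 2.53 CPM with overlapping groups. Its log2 fold change of 0.25 had an edgeR adjusted p of 0.0463. The call was lost in 9 of 16 alternatives, with 0.0514 under the replicate block, 0.104 without control replicate 2, 0.201 without control replicate 3, 0.211 without shMUC1 replicate 1 and 0.207 without shMUC1 replicate 2. KDM2B, which brings the PCGF1 complex to CpG islands, had a log2 fold change of 0.05 (edgeR adjusted p = 0.55), and passed at 0.23 after correction for GC content and length (0.00598).

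Over the 22 PRC1 genes, 6 were higher and 6 lower (27.3% each), against 25.2% and 23.6% of all tested genes. The median log2 fold change was 0.05. Without shMUC1 replicate 2 the median was -0.03.

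In PR-DUB, 1 of 3 genes passed. BAP1, the deubiquitinase, was at 34.1, 33.0 and 32.1 CPM in control and at 29.2, 30.8 and 32.3 CPM in shMUC1 libraries. The groups overlapped by 1 library each. Its log2 fold change was -0.11 (SE 0.069, edgeR adjusted p = 0.207). ASXL1, which activates BAP1, fell from 232 ± 2.30 to 214 ± 1.237 CPM (SD, n = 3 each), with a log2 fold change of -0.113 (edgeR adjusted p = 0.00534). After correction for GC content and length, ASXL1 stood at 0.0207 (adjusted p = 0.634). ASXL2 had a log2 fold change of -0.07 (edgeR adjusted p = 0.388), and ASXL1 held 84.6% ± 0.929 and 84.2% ± 0.630 of their summed per-length level in control and shMUC1 cells.

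The Polycomb genes were also looked up for ATCAGTA, a word of 7 letters in the 3′ untranslated region (3′ UTR). The word came from an earlier scan of fold changes in these same libraries, so what follows is a description and no independent evidence. It stood in the annotated 3′ UTR of RBBP4, PCGF5 and PHC3, all of which were lower, and in none of the other 33 genes. The sites are shown in windows of 25 bases from GENCODE 29 on GRCh38, with the word in capitals, beside the site in MUC1.
RBBP4, chr1:32681604-32681628, plus strand: tgcattgagATCAGTAtcaacagca
PCGF5, chr10:91284019-91284043, plus strand: agatatttaATCAGTAcaagatatg
PHC3, the first site, chr3:170089459-170089483, minus strand: tatgtaagaATCAGTAatattctag
PHC3, the second site, chr3:170090888-170090912, minus strand: tattaaataATCAGTAaataatcta
MUC1, chr1:155187763-155187787, minus strand: cacagttcaATCAGTAtaaaacgga
The word lay in 1 of 6 annotated RBBP4 transcripts with a 3′ UTR, in 3 of 3 of PCGF5 in 1 of 7 of PHC3 for each site and in 1 of 23 of MUC1. Which of these ends the cells used was not measured.

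Among all tested genes with an annotated 3′ UTR, 12.8% of 13023 held the word. The 1661 holders had a median log2 fold change of -0.12 and 43.2% were lower, against a median of 0.03 and 22.4% lower among 11362 others. BMI1 and RNF2 held no such word. Among the 33 Polycomb genes without it, 11 were higher and 6 lower.

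Beyond the 36 genes, 45 partners and related genes were examined, of which 42 passed the filter. The 45 held 4 PRC2, 21 PRC1 and 8 PR-DUB partners. The rest were 2 demethylases of lysine 27 of histone H3, 4 other H2A deubiquitinases and 6 further MBT-domain genes. The 42 included 14 higher and 15 lower genes, with a median log2 fold change of -0.03. The share called in either direction was 69.0%, against 48.7% of all tested genes. It was 56.0% for genes with a mean count at least that of the lowest Polycomb gene. The median SE was 0.0515 over the 42, against 0.0924 over all tested genes and 0.0734 over genes past that count. EPOP, EZHIP and ASXL3 had no count in any library, and a level of up to 0.161 CPM (3 counts in the shallowest library) stays possible. LCORL, a PRC2-associated protein, fell from 53.5 to 25.7 CPM (log2 fold change -1.06). AUTS2, a partner of PCGF3 and PCGF5, fell by 0.68 and the BAP1 partner MBD5 by 0.67 on the log2 scale. SCML1, an SCM relative, rose by 0.67 and MBD6, the paralogue of MBD5, by 0.40. Of 21 PRC1 partners, 10 were higher and 7 lower, and of 7 tested PR-DUB partners 1 was higher and 5 were lower. The shares called were 81.0% and 85.7%. Whether these exceed the share among genes of like SE was not tested.

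Some counts may mix near-identical copies. Named pseudogenes of 7 of the 36 genes were in the table. PHC1P1 had 197 to 300 counts a library, equal to 22.4% of the counts of PHC1, and SUZ12P1 had 130 to 240, equal to 5.91% of those of SUZ12. RBBP4P1 had 79 to 124 counts, equal to 1.49% of those of RBBP4, and BMI1P1 had 0. Opposite-strand exons covered 45.7% of the exon length of PCGF2, 18.1% of PHC1, 18.0% of RBBP4, 17.9% of CBX7 and 10.5% of PHC3. In bulk RNA, a lower level in every cell and fewer cells that express a gene cannot be told apart.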

How the data were processed

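Stranded mRNA libraries (TruSeq) were sequenced. What the authors deposited are raw counts, not normalized, 1 row a gene symbol, with 1 column for each of the 6 libraries and no pooling. The submitters' processing notes list CASAVA 1.8.2, STAR 2.7.9a, featureCounts, DESeq2 1.24.0 and GRCh38.p7, with no roles. The annotation release and strand setting are not given in the sources used here.

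The main test was edgeR 4.0.16 in R 4.3.3 (glmQLFTest), two-sided, with TMM scaling, filterByExpr, group as the only term and Benjamini-Hochberg adjustment. SEs were derived from the F statistic. DESeq2 1.42.0 and limma-voom (limma 3.58.1) were alternatives, and the edgeR step was tested on simulated data. Symbols were matched to GENCODE 29 (98.1% of rows, all 36 genes) for exon length, position and 3′ UTRs. Shares of per-length levels were compared by exact permutation.

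Members and lists were chosen with earlier results of these data known. By rule, values per library were given for genes past 1.5-fold and for EZH2, EED, SUZ12, RING1, RNF2, BMI1 and BAP1. Those of PHC3, PCGF3 and L3MBTL2 were added after their values were seen. At most 5 partners, proliferation genes or targets were named per list, as the largest called changes with a mean of at least 100 counts. One gene of the target list is not reported here and was left out of its counts. Of the values from 1 to 20 counts, 69.6% ± 0.706 in control and 70.2% ± 0.319 in shMUC1 libraries (SD, n = 3 each) were even, so halved counts were also tried. Intervals of fold changes come from the edgeR fit, and the floor of 3 counts covers counting error only.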

Additional observations from a re-analysis of the deposited data

How the results depend on the processing

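The gene counts and the medians per complex were computed again under 10 other settings (unscaled library totals, size factors of DESeq2, every gene with a count, genes averaging 50 counts or more, limma-voom, DESeq2 itself, the replicate block, halved counts, libraries drawn down to 1 depth, correction for GC content and length) and with each library left out. The counts of higher and lower genes were 11 and 9, and each stayed within 1.5 times of that except 7 higher without shMUC1 replicate 2 and 0 and 0 at a fold change over 2. With 1 library left out they ran from 7 to 10 and from 6 to 11. Library totals and the filter at 50 counts each gave 10 and 12, and correction for GC content and length gave 13 and 6. Of 575 values for single genes, 514 kept direction and side of the threshold, 29 lost a call, 13 gained one and 19 changed sign, and the cause was not tested.

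The PRC2 median was 0.0863 with library totals, 0.0853 with the filter at 50 counts, and 0.0436 to 0.136 with 1 library left out. The PRC1 median then ran from -0.0279 to 0.105. The PR-DUB median of -0.107 was -0.129 with library totals, -0.0971 with no filter, -0.130 with the filter at 50 counts, -0.116 with halved counts, -0.0908 with libraries drawn down, 0.0207 with correction for GC content and length, and -0.121 to -0.106 with 1 library left out. The difference in the BMI1 share of the PCGF family was -9.74 points with counts not divided by length and, in an alternative chosen after seeing the data, -12.3 points with the exons shared with COMMD3-BMI1 left out of its length.

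Genes that changed sign were uncalled, ASXL1 apart. With correction for GC content and length, ASXL1 stood at 0.0207, ASXL2 at 0.0302, AEBP2 at 0.0156 and CBX6 at 0.111. AEBP2 was 0.00734 with no filter, and CBX8 was -0.0121 under the replicate block and -0.0488 with libraries drawn down. With 1 library left out, EZH2 ran from -0.0303 to 0.0121, AEBP2 from -0.0371 to 0.0140, PCGF1 from -0.0786 to 0.167, CBX6 from -0.0793 to 0.0332, CBX7 from -0.0558 to 0.229 and CBX8 from -0.204 to 0.227. Same-numbered libraries did not deviate together (correlations of -0.00804, -0.0363 and -0.0416), so they share only a number. The replicate block gave 10 higher and 9 lower genes, and YAF2 was the call it ended.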

Other observations

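Many developmental transcription factors and signalling genes are textbook targets of Polycomb silencing, and 39 of them were examined. In these cells 30 passed the filter on low counts. Of these, 4 were higher and 7 lower in shMUC1 cells at an edgeR adjusted p under 0.05, with a median log2 fold change of -0.03 against 0.00058 over all tested genes. The share called in either direction was 36.7%, against 48.7% over all tested genes, and 19 of the 30 did not pass. The median SE was 0.159, against 0.0924 over all, so the lower share does not mean smaller changes. The median absolute log2 fold change was 0.289, against 0.245 over all. Past a 1.5-fold change 4 of the 30 were higher and 4 lower, against 5.51% and 8.34% of all. Past 2-fold 1 was higher and 2 were lower, against 2.21% and 3.74% of all. A larger SE also widens absolute fold changes, so these values do not show larger changes in the targets. Whether they exceed those of genes of like SE was not tested. CDKN2B, a cell cycle inhibitor, rose from 12.4 to 21.7 CPM (log2 fold change 0.81, SE 0.104). PAX9, a pharyngeal and skeletal patterning factor, rose by 0.68. GATA4, an endoderm and heart factor, fell by 0.70. EN2, a midbrain patterning factor, fell by 0.64 and MSX1, a craniofacial and limb patterning factor, by 0.42 on the log2 scale. The list was written from general knowledge, and histone marks at these genes were not measured.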
